A study of Mus musculus with 6 samples.

Results

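The replication-dependent histone transcripts of mouse dorsal skin were examined in single cells collected across the first days of depilation-induced hair follicle (HF) regeneration. Every gene whose symbol began with Hist1h, Hist2h, Hist3h or Hist4h was taken, which gave 67 of the 32285 genes in the count matrices. The choice used symbols alone and no measured value. The cells came from wildtype male FVB mice aged postnatal day 55 to 57, whose back skin had been shaved and waxed. There were 6 libraries, 3 harvested within the first day (0 h, 4 h and 16 h after depilation) and 3 later (2 d, 4 d and 6 d), and each was an equal mix of cells from 2 mice that were processed separately before mixing. With 1 library per time point, library and time point cannot be told apart, and a pair of time points could not be tested.

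Replication-dependent histones are the linker histone H1 and the core histones H2A, H2B, H3 and H4, which package DNA as it is copied. Their genes sit in clusters, mostly lack introns and are expressed mainly in S phase. Their messages usually end at a conserved stem-loop instead of a poly(A) tail. The stem-loop binding protein, encoded by Slbp, acts there in 3′ end formation, translation and decay. The libraries were made with a 3′ kit that primes on poly(A), so a count records the molecules that were primed, not all histone mRNA. A few members, among them Hist1h1c, Hist1h2bc and Hist2h2be, are known to also make polyadenylated messages outside S phase.

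The 67 genes comprised 6 H1, 18 H2A, 18 H2B, 12 H3 and 13 H4 genes. Of these, 54 lay at chr13:21715763-23934851, 10 at chr3:96219865-96270132, 2 at chr11:58948920-58956830 and 1 at chr6:136801553-136804415 (GRCm38). In the gene models, 62 members had a single exon in every transcript, and 46 held a complete stem-loop in the annotated exon. The models of 23 of those 46 ended within 100 bases of the stem-loop and those of the other 23 ran on for more than 100 bases. Of the 21 members without a complete stem-loop in the model, 11 had no UTR annotated at all. The stem-loops of the members with many UMIs, and of an H3 and an H4 gene with other stem sequences, are printed with the 14 bases before them, and capitals mark the 16-base stem-loop.
Hist1h2ap: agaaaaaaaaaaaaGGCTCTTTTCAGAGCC
Hist1h2ao: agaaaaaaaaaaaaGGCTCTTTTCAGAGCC
Hist1h2ae: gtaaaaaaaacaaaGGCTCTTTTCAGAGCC
Hist1h1e: cccaacaacccaaaGGCTCTTTTCAGAGCC
Hist1h1c: ctaacaatccaaaaGGCTCTTTTCAGAGCC
Hist1h4d: acccaaaaaccaaaGGCCCTTTTCAGGGCC
Hist1h3c: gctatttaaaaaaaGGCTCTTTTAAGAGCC

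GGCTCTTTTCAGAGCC was the most common form and stood in 26 members, all H1, H2A, H2B or H3 genes. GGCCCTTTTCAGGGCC stood in 7 members, all of them H4 genes, and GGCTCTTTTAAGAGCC in 6. Hist1h2ap and Hist1h2ao were the only members with a run of 12 A bases right before the stem-loop. Hist1h2ap lay at chr13:21833026-21833507 on the minus strand and its model ended 3 bases after the stem-loop. Hist1h2ae lay at chr13:23570517-23571220, Hist1h1e at chr13:23620629-23622558 and Hist1h1c at chr13:23738808-23740367. Hist1h1b lay at chr13:21779883-21780625, and its model held no complete stem-loop. In the 300-base RefSeq promoters of 62 members (GRCm38.p6, both strands searched), the letters TATAAA occurred in 56.5%, against 13.6% of 32817 promoters of all genes. CCAAT occurred in 85.5% against 37.4%, and the octamer ATTTGCAT in 22.6% against 1.74%.

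Many members are close copies, and 27 of the 67 shared more than 50% of their 90-base stretches with another gene. For these genes the split of reads between copies is uncertain. Hist1h2ap shared 92.4% of its stretches and Hist1h2ao 92.8%, and Hist1h2ao had 28 UMIs in all libraries together. Hist1h1b and Hist1h1a were among the 6 members that shared none.

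The libraries held 72634390 to 112370376 UMIs and 542895832 in all. Limits on genes and mitochondrial UMIs kept 55177 of 61031 barcodes, 4675 were removed as doublets and 50502 cells were analyzed. Their median depth was 6032 to 10528 UMIs by library. Of 60599 distinct barcodes, 430 occurred in more than 1 library. The 2 d library stood apart, with 17.7% of its barcodes outside the limits against 3.73% to 10.6% in the other 5. Cell types were rebuilt from marker genes, with the histone and cell cycle genes kept out of the clustering. Of the 7 IFE.B markers all were higher in the IFE.B cluster, yet none was among its top 10 genes by fold.

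The histone genes supplied 372954 UMIs, which was 0.0687% of all UMIs. A UMI count tags molecules at their 3′ end and was not divided by length. Of the 67 members, 63 were detected, and Hist1h2bq, Hist1h4m, Hist1h2ba and Hist1h2aa had no UMI. A few genes carried the total. The linker histone gene Hist1h1b gave 81336 UMIs (21.8%), the H2A gene Hist1h2ap 80996 (21.7%) and the H2A gene Hist1h2ae 43813 (11.7%). The linker histone genes Hist1h1e and Hist1h1c followed with 39686 and 28369 UMIs, and the H2B gene Hist1h2bc with 22838. The leading 5 members held 73.5% and the leading 15 held 93.4% of the histone UMIs, while the median member had 513. By class, H1 genes supplied 42.8%, H2A genes 40.9%, H2B genes 8.65%, H4 genes 4.84% and H3 genes 2.80%.

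The summed histone level over all barcodes differed between libraries. From 0 h to 6 d it was 526, 176, 1025, 287, 1003 and 919 CPM (histone UMIs per 1000000 UMIs). The 4 h and 2 d libraries were the low ones. Counting error was small beside these gaps, with 95% Poisson intervals of 173.1 to 179.2 CPM at 4 h and 283.6 to 290.2 CPM at 2 d. Those intervals cover counting error only. In all cells of the 6 libraries, 60.0% held at least 1 histone UMI and the highest count in a cell was 386. Free RNA in droplets also gives such UMIs, and no cell type here can be taken to lack histone mRNA.

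Among cell types with at least 20 cells in every library, the basal compartments had the highest medians over libraries, and the order of types differed between libraries. Upper HF basal cells (uHF.B) measured 707, 418, 1628, 427, 1186 and 2093 CPM from 0 h to 6 d, and interfollicular epidermis basal cells (IFE.B) 897.5, 208, 1526, 351, 522 and 809.5 CPM. Both were highest at 16 h or 6 d and lowest at 4 h. Outer bulge (OB) cells, the HF stem cell compartment, measured 204, 110 and 145 CPM in the first 3 libraries, then 434, 1502 and 1332 CPM at 2 d, 4 d and 6 d. All 3 late OB values were above all 3 early ones in this clustering. At the doubled clustering resolution the cells called OB went from 1773 to 475 at 4 d, from 1263 to 692 at 6 d and from 330 to 352 at 0 h, and the OB levels were 202, 81.5, 277, 250.4, 610 and 886 CPM from 0 h to 6 d. The 2 d value was then below that of 16 h, and the 4 d and 6 d values were above all others. In a sum over a cell type alone, fewer histone-positive cells and less histone RNA per cell cannot be told apart. Levels in cells divided by proliferation markers are given below. T cells measured 242.5, 201, 152, 149.9, 730 and 1037 CPM, also highest in the last 2 libraries. Sebaceous gland cells reached 2121 CPM at 16 h, above both basal compartments. Lower values were found in the interfollicular suprabasal cells (IFE.SB), with 142, 62.1, 215, 153, 225 and 175 CPM. The inner root sheath (IRS) and matrix cells comprise the dividing progenitors of the matrix and the sheath that forms from them. They had the highest levels of any type with at least 100 cells, 2338 CPM at 4 d (1150 cells) and 3245 CPM at 6 d (190 cells).

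**Figure D1:**
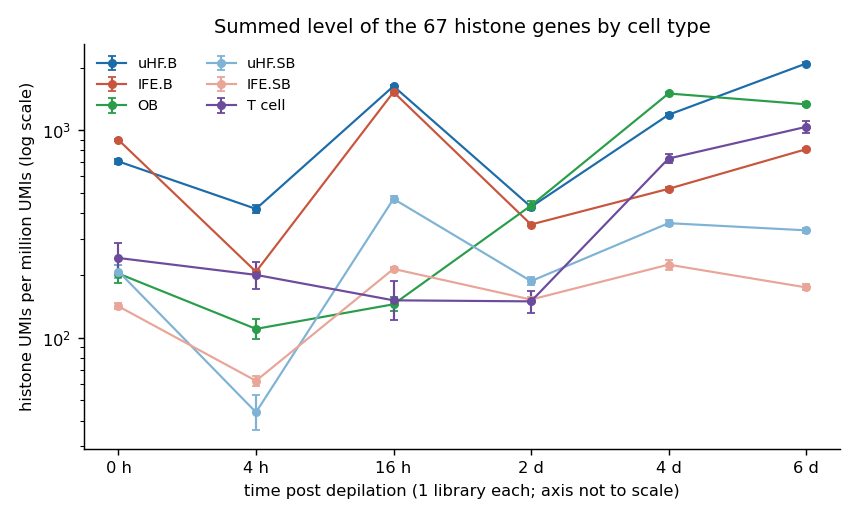
Summed level of the 67 histone genes in 6 cell types. The x axis gives the time post depilation (1 library each) and the y axis the summed level in CPM on a log scale, with 95% Poisson intervals as bars. OB cells stay at 110 to 204 CPM up to 16 h and reach 1502 CPM at 4 d, while IFE.B and uHF.B cells reach 1526 and 1628 CPM at 16 h.

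By the median over libraries the order was uHF.B (947 CPM), IFE.B (666), OB (319), upper HF suprabasal cells (uHF.SB, 269), inner bulge and companion layer (259), T cells (222), Langerhans cells (195), IFE.SB (164) and melanocytes (156), for types with at least 20 cells in every library. None of the 8 neighboring pairs in that order passed a test against the spread over libraries. Exact two-sided sign-flip permutation tests over the 6 libraries gave raw p-values from 0.125 to 0.594 and adjusted p-values from 0.5 to 0.594, where 0.03125 is the smallest p that 6 libraries allow. The leading pair, uHF.B above IFE.B, held in 5 of 6 libraries with a mean difference of 0.60 on the log2 scale.

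Cells with UMIs of Mki67 or Top2a, which encode the proliferation marker Ki-67 and a topoisomerase of dividing cells, carried most of the histone UMIs of each library as a whole. To compare cells at equal depth, each was thinned to 2000 UMIs, and a cell with at least 1 UMI of either gene was called positive. By that rule 6629 of 48443 cells were positive, and 2059 cells under 2000 UMIs (4.08%) were left out. Positive cells made up 3.15% to 22.0% of the cells of a library and held 53.1% to 83.0% of its histone UMIs. This was not so in every cell type. With at least 10 positive cells, they held 64.8% to 90.6% in IFE.B and 72.7% to 86.6% in uHF.B. They held 4.33% to 32.2% in IFE.SB, 1.77% to 49.3% in uHF.SB and 40.7% in OB at 16 h. In IFE.B the positive cells measured 4505, 2589, 4860, 979, 1539 and 3339 CPM from 0 h to 6 d, and the negative cells 223, 64.8, 200.2, 161, 213 and 186 CPM. In uHF.B the positive cells measured 3089, 4118, 4079, 1005, 2684 and 4967 CPM and the negative cells 231, 124, 333, 152, 407 and 474 CPM. The groups did not overlap in either type. At 4 h and 2 d, positive cells made up 5.02% and 26.8% of the uHF.B cells and 4.07% and 18.0% of the IFE.B cells. In OB, 4 libraries had at least 10 positive cells, which measured 1787, 729, 2822 and 4866 CPM from 16 h to 6 d, against 89.0, 253, 613 and 535 CPM in the negative cells.

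**Figure D2:**
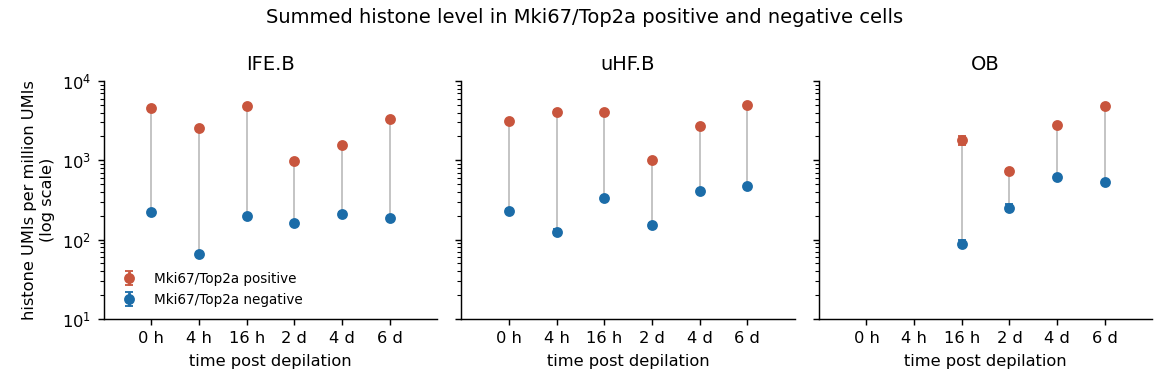
Summed histone level in Mki67/Top2a positive (red) and negative (blue) cells of 3 cell types. The x axis gives the time post depilation and the y axis the summed level in CPM on a log scale, with 95% Poisson intervals, and gray lines join the classes of a library with at least 10 cells in each class. Red lies above blue in every pair, and the 2 d pair has the lowest red point in each panel.

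The mean difference was 3.98 on the log2 scale in IFE.B (15.8-fold), 3.54 in uHF.B (11.6-fold) and 1.64 in IFE.SB (3.11-fold), each higher in 6 of 6 libraries. Exact two-sided sign-flip permutation tests gave p = 0.03125 for each, the smallest possible, and 0.104 after adjustment over 10 cell types. In OB the difference was 2.81 on the log2 scale and higher in 4 of 4 libraries, with an exact permutation p of 0.125 (adjusted p = 0.208), the smallest that 4 libraries allow. Sebaceous gland cells differed by 2.57 in 5 of 5 libraries (exact permutation p = 0.0625, adjusted p = 0.156) and T cells by 3.10 in 3 of 3 (exact permutation p = 0.25, adjusted p = 0.312), each the smallest p possible. Among the 43 pairs of classes with at least 10 cells in each, the only reversed one was that of uHF.SB at 0 h with 11 positive cells. The mean difference in uHF.SB was 1.92. These levels used full counts. In the thinned counts the IFE.SB cells at 4 h were reversed as well, with 0.087 histone UMIs per 2000 in positive and 0.111 in negative cells. Positive cells were also deeper, with medians of 7509 to 15220 UMIs in IFE.B against 6032 to 10364 in negative cells. The part of depth was not tested beyond the thinning that sets the classes.

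Over all types and libraries, cells with neither marker measured 221 CPM, cells with Mki67 alone 1713 CPM, cells with Top2a alone 2350 CPM and cells with both 4455 CPM. At 2 d the same order held at lower values, 158, 476, 770 and 1202 CPM. In uHF.B at 6 d the level went from 474 CPM with no marker UMI to 2343 with 1, 5590 with 2, 6638 with 3 and 7331 CPM with at least 4. Other series were not in order at their upper end. In IFE.B at 0 h the level was 6111 CPM with 3 marker UMIs and 5681 CPM with at least 4, and in OB at 2 d it was 1078 and 864 CPM.

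Gene by gene, most tested members were higher in positive than in negative cells. edgeR's quasi-likelihood test on sums per library, with the library as a block, called 48 of 50 tested members higher in IFE.B, where 44.4% of all tested genes were called and 18.0% were called higher. It called 39 of 42 higher in uHF.B, against 31.8% of all tested genes called and 13.6% called higher. In OB 28 of 38 were higher and 1 lower, against 19.6% called, 9.35% higher and 10.3% lower. In T cells 9 of 10 were higher, against 5.02% called and 4.17% higher. The members that did not pass the filter on low counts numbered 17, 25, 29 and 57. The median log2 fold change over the tested members was 3.81 in IFE.B, 3.23 in uHF.B, 2.26 in OB and 3.59 in T cells, where the median over all genes was between -0.08 and -0.05. There were 27 members higher in IFE.B, uHF.B and OB alike, of 37 tested in all 3, and of all genes tested in the 3 types 820 of 10505 (7.81%) were. Without the library block the test called 22 members in IFE.B, 19 in uHF.B, 6 in OB and 3 in T cells. For that run the share of all genes called is not set beside the counts.

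Hist1h1b was among the members with the widest gap. In uHF.B it measured 823, 1113, 1109, 289, 1023 and 728 CPM in positive cells from 0 h to 6 d, against 12.1, 13.7, 66.4, 9.44, 67.6 and 43.5 CPM in negative cells. The groups did not overlap, and the log2 fold change was 4.60 (SE 0.38, edgeR adjusted p = 0.000425). In IFE.B Hist1h2ap measured 925, 740, 1497, 29.1, 171 and 1397 CPM in positive cells and 17.4, 7.53, 33.7, 1.36, 5.33 and 31.6 CPM in negative cells. Its 2 d positive value was below the 16 h and 6 d negative values, and within each library the positive cells were higher. The log2 fold change was 5.47 (SE 0.24, edgeR adjusted p = 3.93e-06).

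The members with the largest fold changes came from the H1, H2A, H2B and H3 classes. In IFE.B they were the H2B gene Hist1h2bb (5.62, SE 0.31), the H2A gene Hist1h2af (5.53, SE 0.31) and the H2B gene Hist1h2bn (5.50, SE 0.43), all on the log2 scale. In uHF.B Hist1h2af (4.61, SE 0.41) and Hist1h1b led with the H3 gene Hist1h3c (4.50, SE 0.23). In OB 3 H3 genes led, namely Hist1h3b (4.44, SE 0.73), Hist1h3c (3.50, SE 0.38) and Hist2h3b (3.40, SE 0.61). In T cells Hist1h1b (5.13, SE 0.35), the H2A gene Hist1h2ak (5.06, SE 0.40) and the linker histone gene Hist1h1a (4.82, SE 0.69) led. Hist1h2af was a low gene, with 0 to 0.31 CPM in the IFE.B negative cells. Hist1h2bb had 4, 1, 3, 0, 1 and 4 UMIs in those cells from 0 h to 6 d, and Hist1h2bn 3, 0, 0, 1, 0 and 2. In uHF.B negative cells Hist1h2af had 0, 0, 1, 1, 2 and 3 UMIs. In negative T cells Hist1h1a had 1, 2 and 0 UMIs from 2 d to 6 d. These members passed the filter on low counts through the positive cells. The size and order of their fold changes therefore depend on the prior count of the fit. In all OB cells Hist1h3b had 1, 1, 17 and 19 UMIs from 16 h to 6 d and Hist2h3b 2, 3, 17 and 16. The size and order of the leading OB fold changes depend on the prior count as well.

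Hist1h1c and Hist1h2bc, which can be polyadenylated, had smaller fold changes than the leading members. In uHF.B Hist1h1c measured 99.9, 117, 105, 52.3, 110 and 88.4 CPM in positive cells and 48.8, 7.52, 36.0, 38.3, 82.0 and 62.3 CPM in negative cells. The positive cells were higher in 6 of 6 libraries while the groups overlapped across libraries, and the log2 fold change of 0.85 (SE 0.34) missed the threshold (edgeR adjusted p = 0.126). In IFE.B Hist1h1c differed by 0.79 (SE 0.40, edgeR adjusted p = 0.178) and in OB by 0.01 (SE 0.16, adjusted p = 0.979). Hist1h2bc was higher by 0.48 in IFE.B (SE 0.14, edgeR adjusted p = 0.0104) and by 0.62 in uHF.B (SE 0.19, adjusted p = 0.0366). Hist2h2be, with 256 UMIs in all libraries, was tested in IFE.B alone and was higher there by 1.53 (SE 0.49, edgeR adjusted p = 0.0152). In T cells only 1 of these genes was tested, and it was called higher. In OB Hist1h2bc was the member called lower, by -0.46 on the log2 scale (SE 0.16, edgeR adjusted p = 0.0333), with 7.01, 30.8, 60.8 and 104 CPM in positive cells from 16 h to 6 d and 18.4, 50.6, 94.3 and 100.2 CPM in negative cells. It was lower in 3 of 4 libraries, and doubling the clustering resolution turned the difference to 0.97. The 16 h positive value came from 14 cells with 255 histone UMIs, of which Hist1h2bc was 0.392%. Hist1h1c, Hist1h2bc and Hist2h2be together made up 4.42%, 5.28% and 4.70% of the histone UMIs of positive cells in IFE.B, uHF.B and OB, against 32.7%, 27.9% and 36.4% in negative cells, as means over libraries.

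Other tested members that were not called higher were Hist3h2a in IFE.B (0.52), Hist1h2ac (0.51) and Hist2h4 (0.98) in uHF.B, all log2 fold changes. Hist1h2ac, Hist1h2ak, Hist1h2be, Hist1h4i and Hist3h2a were not called higher in OB either. In T cells 9 of 10 tested members were called, and the lowest log2 fold change was -1.54. Hist3h2a measured 18.6, 8.79 and 7.46 CPM in positive T cells from 2 d to 6 d, against 32.7, 25.2 and 36.0 CPM in negative T cells. In OB, where 4 libraries entered, the H2A genes Hist1h2ap (4.10, SE 0.89, edgeR adjusted p = 0.0697) and Hist1h2ae (3.48, SE 0.72, adjusted p = 0.0619) and Hist1h1b (3.94, SE 0.96, adjusted p = 0.0874) missed the threshold despite large fold changes. Leaving out the 2 d library raised the OB count of members called to 32, and leaving out the 4 d library lowered it to 11. The share of all genes called in these runs is not set beside the counts.

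**Figure D3:**
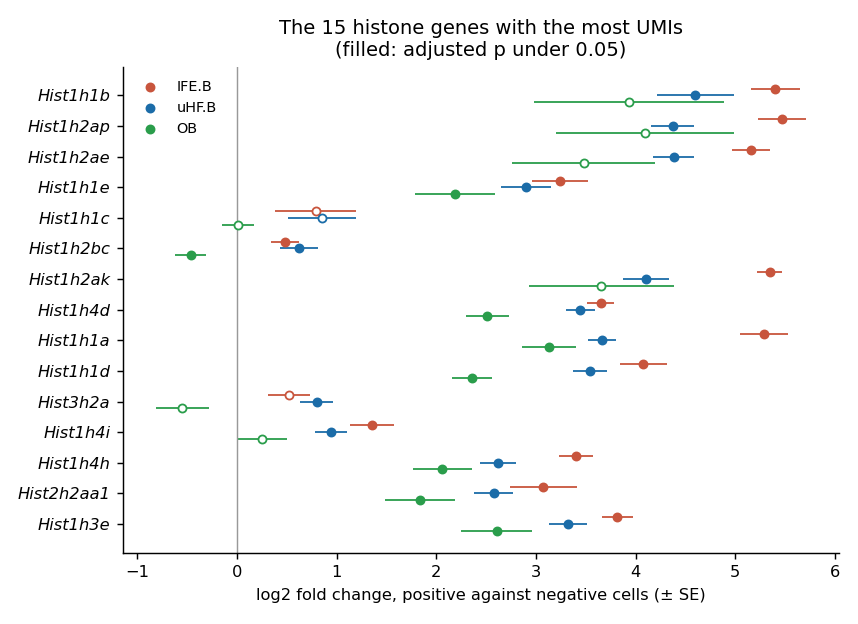
Log2 fold change of positive against negative cells (x axis, with SE bars) for the 15 members with the most UMIs (y axis) in IFE.B (red), uHF.B (blue) and OB (green), filled where the edgeR adjusted p is under 0.05. Hist1h1c, Hist1h2bc and Hist3h2a lie between -0.55 and 0.85, and Hist1h1b, Hist1h2ap, Hist1h2ae and Hist1h2ak between 3.48 and 5.47.

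Members whose models ended far past the stem-loop had smaller fold changes than the others. In uHF.B the median log2 fold change was 2.12 for members ending more than 100 bases past the stem-loop, 3.65 for those ending within 100 bases and 3.70 for those without a complete stem-loop in the model. The medians were 3.10, 4.30 and 4.81 in IFE.B and 1.68, 2.58 and 3.13 in OB, in the same order. These are descriptions of the annotated models, without a test. The classes also differed in counts, with a median of 1057, 233 and 359 UMIs per member in the same order. The part of this in the fold changes was not tested.

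Histone transcripts are known to accumulate in S phase, so positive cells were divided by whether they held more thinned UMIs of a 41-gene S list or of a 48-gene G2/M list. The G2/M list held more UMIs in every library. In IFE.B at 0 h, 12 positive cells were S-leading and 329 G2/M-leading. Among negative cells with at least 3 list UMIs it was 100 and 1487, though 441 and 288 in OB at 4 d. G2/M-leading IFE.B cells at 16 h held 3039 CPM of the S list, against 1158 CPM in negative cells. The classes thus do not separate S from G2/M phase, and they cannot show the phase of highest histone RNA. No member was called higher in the S-leading cells, where 5.93% of all tested genes were higher in IFE.B, 9.16% in uHF.B and 6.42% in OB. DESeq2 called 0 members higher, and 0 were higher at an unadjusted edgeR p under 0.05. edgeR's test with the library as a block called 18 of 40 tested members lower in S-leading cells in IFE.B (6.98% of all tested genes were lower), 13 of 29 in uHF.B (7.63%) and 4 of 16 in OB (4.75%). The members' median log2 fold change, S-leading against G2/M-leading, was -1.06, -0.56 and -0.43, against -0.03, 0.01 and 0.01 over all genes. Without the library block 2 members were called in IFE.B, 1 in uHF.B and none in OB. The classes can be set by few genes. Tubb4b, a tubulin gene of the G2/M list, gave 17.9% of that list's UMIs in positive cells, and with Tubb4b left out, an alternative chosen after seeing the data, 18, 12 and 3 members were called, all lower. For these alternatives the share of all genes called is not set beside the counts.

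Summed over members, the S-leading cells of uHF.B measured 3314, 2799, 883, 1534 and 4268 CPM in the 5 libraries other than 4 h, in time order, and the G2/M-leading cells 3063, 4798, 1046, 3091 and 5290 CPM. S-leading cells were lower in 4 of 5 libraries, and the 0 h library, with 11 S-leading cells, went the other way. So did IFE.B at 4 d, with 2243 CPM in 13 S-leading cells against 1519 CPM, and OB at 2 d, with 740 against 724 CPM. Without Tubb4b in the G2/M list those values were 2164 against 1510 CPM and 852 against 649 CPM. The linker histone gene Hist1h1e measured 210, 183, 105, 139 and 207 CPM in S-leading cells of uHF.B and 483, 418, 155, 356 and 297 CPM in G2/M-leading cells. It was lower in every library, by -0.93 on the log2 scale (SE 0.10, edgeR adjusted p = 1.81e-12). In OB Hist1h1e measured 93.3, 242 and 158 CPM in S-leading cells at 2 d, 4 d and 6 d and 143, 373 and 302 CPM in G2/M-leading cells (log2 fold change -0.65, SE 0.10, edgeR adjusted p = 7.99e-05). Hist1h2ak (-0.72) and Hist1h2ae (-0.37) were also lower in each of the 3 OB libraries. Hist1h2ap (-0.49) was lower at 4 d and 6 d and at 2 d measured 21.5 against 17.1 CPM.

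The largest fitted changes in uHF.B were those of the H2B gene Hist3h2ba (-2.56, SE 0.56) and the H3 genes Hist1h3f (-1.52, SE 0.32) and Hist1h3d (-1.41, SE 0.51). Without Tubb4b in the G2/M list Hist1h3d was no longer called (-1.12, edgeR adjusted p = 0.0756). In IFE.B Hist3h2ba had 0, 1, 0, 0 and 0 UMIs in the S-leading cells of the 5 libraries and 34, 62, 9, 13 and 17 UMIs in the G2/M-leading cells. Hist1h2af had 3 UMIs in S-leading cells, all at 16 h. Their fitted changes (-3.76, SE 0.94, and -2.60, SE 0.69) therefore depend on the prior count of the fit. The H4 gene Hist1h4h had 0, 6, 2, 0 and 2 UMIs in S-leading against 217, 301, 20, 35 and 77 UMIs in G2/M-leading cells of IFE.B (-2.77, SE 0.40). Hist1h1b, with log2 fold changes of -0.86 in IFE.B, -0.41 in uHF.B and -0.24 in OB, was not called in any of the 3. S-leading cells also held less Mki67 (-1.46 in uHF.B) and Top2a (-0.97), so the 2 classes differed in the markers that had selected them, and the part of this in the histone difference was not tested.

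The highest histone levels were in cells with many UMIs of both lists. In thinned cells with at least 6 UMIs of the S list and at least 6 of the G2/M list, the mean over libraries was 10.1 histone UMIs per 2000 (2.80 to 17.0 by library, 3452 cells). With 3 to 5 S-list UMIs and at least 6 of the G2/M list it was 3.61. With at least 6 S-list UMIs but 1 to 2 of the G2/M list it was 0.358, similar to the 0.409 in cells without UMIs of either list. With Tubb4b left out of the G2/M list the corner value was 12.5 histone UMIs per 2000.

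**Figure D4:**
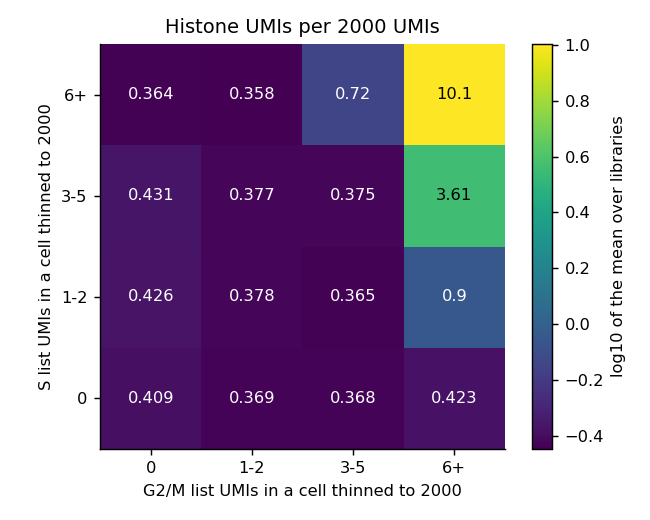
Mean histone UMIs in cells thinned to 2000 UMIs, by the cell's UMIs of the G2/M list (x axis) and the S list (y axis), as means over libraries with at least 10 cells. The color is the log10 of the mean. The upper right square reads 10.1, and every square with fewer than 3 G2/M-list UMIs reads between 0.358 and 0.431.

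The 2 d library had an unlike make-up of histone UMIs. The share of Hist1h2ap was lowest there, and those of Hist1h1c, Hist1h2bc, Hist3h2a and Hist1h4i were highest. Hist1h1c took 17.9% of the histone UMIs at 2 d and at most 7.98% in any other library. For Hist1h2bc it was 14.6% and at most 7.17%, for Hist3h2a 3.26% and 1.84%, and for Hist1h4i 3.28% and 1.46%. In CPM, Hist1h1c and Hist1h2bc at 2 d lay within the range of the other libraries. From 0 h to 6 d Hist1h2ap measured 81.4, 36.9, 284, 5.23, 102 and 340 CPM over whole libraries, and its share of the histone UMIs was 15.5%, 20.9%, 27.7%, 1.82%, 10.1% and 37.0%. The 2 d value rested on 521 UMIs. Among cell types with at least 100 histone UMIs, the share was 0% to 2.31% in all 10 types at 2 d and 8.24% to 48.7% in 11 types at 6 d. At 0 h the types lay between 0.676% and 26.1%, at 4 h between 4.52% and 27.9%, at 16 h between 0.692% and 29.5%, and at 4 d between 3.22% and 14.4%. The lowest shares at 0 h and 16 h, in the inner bulge and companion layer, thus lay within the 2 d range. In positive cells Hist1h2ap measured 549, 1168, 1134, 25.3, 312 and 2123 CPM in uHF.B, and 589, 19.3, 361 and 2284 CPM in OB from 16 h on. At 2 d its share was 2.97% in IFE.B, 2.52% in uHF.B and 2.65% in OB, and at 6 d it was 41.8%, 42.8% and 46.9%. Hist1h1b did not follow this pattern, with 104, 36.6, 255, 53.9, 290 and 103 CPM and shares between 11.3% and 28.9%.

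**Figure D5:**
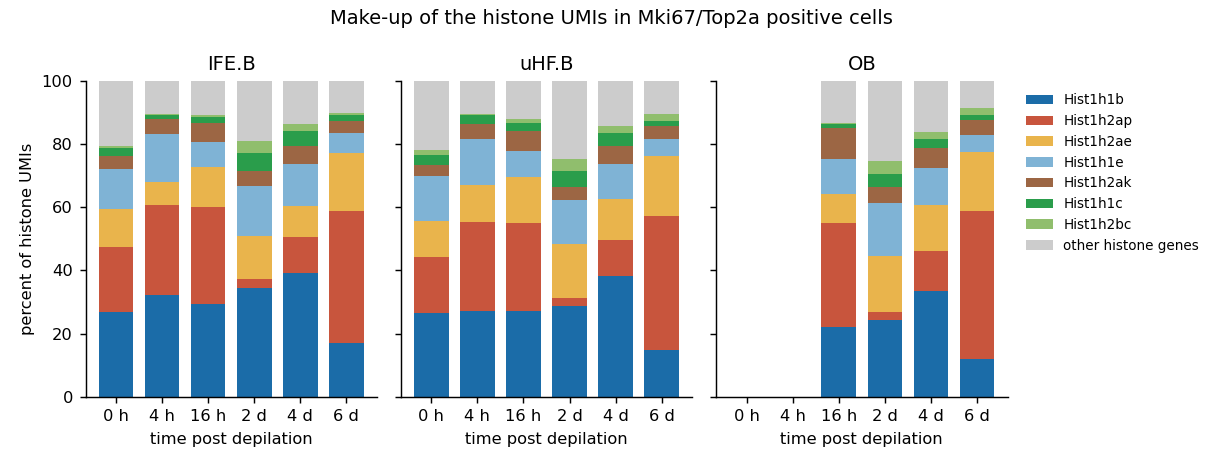
Share of the histone UMIs (y axis, percent) taken by 7 members and by all others in Mki67/Top2a positive cells, by time post depilation (x axis), for IFE.B, uHF.B and OB, in libraries with at least 10 positive cells. The Hist1h2ap segment is 2.52% to 2.97% of the bar at 2 d and 41.8% to 46.9% at 6 d.

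Most members measured lower at 2 d, 28 of 34 in uHF.B, 35 of 41 in IFE.B and 20 of 26 in OB, in a comparison without a test. The median over all genes was below 0 as well, so a lower value alone is not particular to the members. On the log2 scale the members' median was -0.90, -0.96 and -0.83, against -0.13, -0.17 and -0.07 over all genes. Relative to the mean of the 16 h and 4 d libraries on the log2(CPM + 0.5) scale, Hist1h2ap in positive cells differed by -4.53 in uHF.B, -4.10 in IFE.B and -4.54 in OB. Hist1h2ak differed by -2.28, -1.82 and -2.26, Hist1h1b by -1.88, -1.46 and -1.78, Hist1h2ae by -1.40, -1.20 and -1.03 and Hist1h1e by -1.17, -0.85 and -1.05. Hist1h4i differed by 0.09, 0.02 and -0.41 and Hist1h2bc by -0.62, 0.11 and 0.54. Members lower by more than 1 numbered 15 of 34 in uHF.B (3.38% of all genes), 19 of 41 in IFE.B (3.03%) and 12 of 26 in OB (8.24%), among genes with at least 30 UMIs. Without Hist1h2ap the summed level of positive cells was still lowest at 2 d, with 950 CPM in IFE.B against 1368 to 3579 CPM in the other libraries, and 980 CPM in uHF.B against 2372 to 2950 CPM. The level of Slbp in positive cells at 2 d was 131 CPM in uHF.B (82.6 to 143 in the other libraries) and 128 CPM in IFE.B (41.9 to 122). Mki67 and Top2a together measured 1185 CPM in those uHF.B cells at 2 d, within the 763 to 1466 CPM of the other libraries. These differences compare libraries and have no replicate check.

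Across the 6 time points, edgeR's spline test on the sums per cell type called no member in OB (of 23 tested), uHF.B (of 41) or IFE.B (of 48), where 0.0% of all tested genes were called. At an unadjusted p under 0.05 there were 15 members in OB, where 9.26% of all tested genes (1038 of 11208) were under it, and none in uHF.B (2.26%) or IFE.B (0.649%). DESeq2 called 8 members in OB, where it called 4.47% of all tested genes, and none in uHF.B (0.355%) or IFE.B (0.162%). The linear coefficient was positive for all 23 OB members, with a log2 median of 2.44 over the whole span against -0.02 over all genes. The other 44 members did not pass the filter on low counts in OB. A member could pass that filter through high late libraries, so the shared sign may be partly set by the filter. In OB Hist1h1b measured 10.4, 2.39, 14.3, 87.7, 457 and 119 CPM from 0 h to 6 d, and Hist1h2ap 27.1, 12.7, 22.4, 10.0, 175 and 510 CPM. Both were highest in the last 2 libraries. In T cells 1 of 9 tested members was called (0.0513% of all genes). This was Hist1h2ae, with 8.60, 9.09, 6.97, 6.15, 95.4 and 150 CPM, a coefficient of 4.77 (SE 0.51) and an edgeR adjusted p of 0.0427. With log2(hours + 1), with the rank of the time point or with a linear trend alone no T cell member was called.

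Genes around the histone pathway were compared in the same cells from 3 lists. Of 11 variant histone genes, none of them among the members, 9 were higher in positive cells of uHF.B, 8 in IFE.B and 7 in OB. The share of all tested genes called higher was 13.6%, 18.0% and 9.35%. H2afx, which marks DNA breaks when phosphorylated, differed by 2.66 in uHF.B, H2afz by 1.61 and the centromere histone gene Cenpa by 3.73, while H3f3a did not pass (-0.06). Of the chaperones and assembly factors 10 of 10 were higher in uHF.B and IFE.B and 9 of 10 in OB, with Asf1b at 2.52 in uHF.B. Of the tested genes of histone mRNA synthesis and 3′ end processing 5 of 10 were higher in uHF.B, among them Slbp (0.93), and Lsm10 was lower (-0.59). All of these are log2 fold changes.

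In the S-leading cells these lists went in different directions from each other. In uHF.B Slbp (1.14), Casp8ap2 (0.87), which takes part in histone gene transcription, and the assembly factor genes Chaf1b (2.02), Hat1 (1.07) and Nasp (0.63) were higher in S-leading than in G2/M-leading cells by log2 fold change, while the histone members called were lower. In all, 4 of 9 tested processing genes and 6 of 10 chaperones were higher there and none was lower. Over all tested genes of uHF.B 9.16% were higher and 7.63% lower. Of the variant histones 8 of 11 were lower, with Cenpa at -3.92, H2afx at -1.24 and H2afz at -0.52, and H2afy2 was higher.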

How the data were processed

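The authors aligned the 10x Chromium 3′ reads and deposited filtered matrices of raw UMI counts (Cell Ranger 6.1.2 and mm10 in the submitters' processing notes). Barcodes with 500 to 7000 genes and at most 10% mitochondrial UMIs were kept. Scrublet scores (scanpy 1.11.5) removed the highest-scoring barcodes at 0.8% per 1000 barcodes. Scrublet's own threshold called 1907, so the expected rate was used. Cells were integrated and clustered in Seurat 5.3.0 (2000 variable genes, 30 components, resolution 0.2) and named from marker genes. Before clustering, 614 genes were kept out, namely the histone and cell cycle lists and genes that followed the cycle score. A doubt about rebuilt names remains, and they may differ from those of the study.

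Sums used full counts from at least 10 cells, and classes used cells thinned to 2000 UMIs. Genes were tested with edgeR 4.0.16 (quasi-likelihood, TMM, filterByExpr, Benjamini-Hochberg threshold 0.05), with a spline of 3 degrees of freedom for time and the library as a block for cell classes, checked on simulated counts. DESeq2 1.42.0, other filters, normalizations, clusterings, doublet numbers, class rules and libraries left out were alternatives. Cells of a library are not replicates. For cell classes the p-values measure how steady the difference within a library is across libraries, each of another time point. For time they measure what the spline leaves between single libraries. Neither measures the spread between replicate libraries of a time point. The text names the 15 members with the most UMIs, Hist1h1c, Hist1h2bc and Hist2h2be, up to 3 called members with the largest change in each direction of each comparison, and up to 3 leading genes of each list. Other named genes were picked after their values were seen. Members and lists were chosen with earlier results of these data known.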

Additional observations from a re-analysis of the deposited data

Results flagged for a closer look

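Histone signal also stood in barcodes that no comparison of cell types or cell classes used, above the limit that a count of 0 allows. The levels over whole libraries include these barcodes. In barcodes removed as doublets the summed histone level was 643, 108, 1093, 365, 1070 and 1099 CPM from 0 h to 6 d. In the analyzed cells it was 524, 182, 1036, 276, 1003 and 892 CPM. The doublet level was above that of the cells in 5 of 6 libraries and below it at 4 h. In barcodes outside the limits on genes and mitochondrial UMIs it was 285, 264, 481, 254, 620 and 725 CPM. That was below the analyzed cells in 5 of 6 libraries and above them at 4 h.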

How the results depend on the processing

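The summed difference between positive and negative cells kept its direction in every alternative run, with ranges over the libraries left out in turn of 3.71 to 4.26 in IFE.B, 3.24 to 3.71 in uHF.B and 1.27 to 1.75 in IFE.SB on the log2 scale. Counts of members called moved more. The share of all tested genes called moved with the setting too, in the time course of OB from 0% to 4.47% by DESeq2. That share is not set beside the counts below, so they cannot be read as results about the members alone. In the time course of OB, with 0 called in the reported fit, 5 were called with no filter on low counts, 8 by DESeq2, 13 with log2(hours + 1) and 9 with ranked times. In T cells, with 1, the counts were 7 with no filter, 4 by DESeq2 and 0 with the number of doublets removed doubled, with log2(hours + 1), with ranked times and with a linear trend. Leaving out 1 library at a time gave 4 (without 4 d) to 19 (without 0 h) in OB, 2 (without 16 h) to 8 (without 0 h) in T cells, and 0 in uHF.B and IFE.B. For positive against negative cells, 13 members were called in OB at the doubled resolution, and without the library block 6 in OB, 19 in uHF.B, 22 in IFE.B and 3 in T cells. Libraries left out gave 11 (without 4 d) to 32 (without 2 d) in OB, 37 to 39 in uHF.B, 41 to 49 in IFE.B and 6 to 8 in T cells. For S-leading against G2/M-leading cells, OB gave 7 with no filter, 1 by DESeq2, 1 with at least 2 marker UMIs and 0 without the block. There uHF.B gave 28 without thinning, 2 with at least 2 marker UMIs and 1 without the block, and IFE.B gave 30, 6 and 2, and 6 by DESeq2. Libraries left out gave 3 (without 6 d) to 7 (without 2 d) in OB, 9 to 16 in uHF.B and 8 (without 16 h) to 20 (without 0 h) in IFE.B. Causes were not tested.

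Among the results and alternatives run, signs turned only near 0 or for Hist1h2bc and Hist1h1c in OB. Hist1h2bc, positive against negative, was 0.97 at the doubled resolution. Hist1h1c was -0.057 with no filter, -0.048 by DESeq2, -0.010 with doubled doublets, -0.45 without thinning, -0.012 with at least 2 marker UMIs, and -0.24 (without 4 d) to 0.13 with libraries left out. In S-leading cells it was 0.033 with at least 2 marker UMIs and -0.70 to 0.49 (without 4 d). Inner bulge minus T cells ranged from -0.41 to 0.0046 (without 4 h) and IFE.SB minus melanocytes from -0.80 to 0.045 (without 6 d). In all, 237 of the values that answer a comparison kept their direction and side, or a count within 1.5 times, 41 counts moved by more than 1.5 times and 2 signs turned. With 5 libraries the smallest exact sign-flip p is 0.0625, and with 12, 13 and 20 S-leading IFE.B cells at 0 h, 4 d and 6 d, members with few UMIs could not be read there.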

Other observations

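Cell types outside the main comparisons held histone-rich positive cells too. In sebaceous gland cells, which make the skin's sebum, positive cells from 4 h on (12 cells in that library) measured 1675, 4026, 806, 2105 and 6092 CPM, and negative cells 348, 707, 199, 438 and 441 CPM. IRS and matrix cells measured 3472 CPM in 559 positive cells at 4 d and 5599 in 75 at 6 d, against 960.5 and 1131 CPM in negative cells. In the Langerhans cells, the antigen-presenting cells of the epidermis, positive cells of the last 3 libraries measured 1066, 1744 and 2529 CPM (22, 16 and 11 cells), against 125, 767 and 365 CPM. The Hist1h2ap share of the histone UMIs in positive sebaceous gland cells was 2.39% at 2 d and 44.8% at 6 d, and in positive T cells 4.35% and 51.3%.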
